A study of Mus musculus with 56 samples.

Results

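Activated CD4 T cells that carried CD62L on their surface were compared with cells activated in the same way that lacked it, 48 h after activation. The comparison rests on 6 of the 56 libraries of the study, 3 CD62L positive and 3 CD62L negative, chosen by sort label, time and experiment and by no measured value. All cells came from the spleen of C57BL/6 mice. They entered culture as naive CD4 T cells at 250000 cells per ml in complete RPMI, in 96-well plates, with beads coated with antibodies to CD3 and CD28 and no added cytokine. At 48 h the cells were sorted as CD4 positive and CD62L positive, or CD4 positive and CD62L negative. CD44 was not part of this sort, so it did not exclude cells that had not responded to the beads. The sorted cells are called activated because they were cultured with the beads. The part of cells that had not responded in the differences was not tested. RNA was read from 3′ transcript ends. The same cells sorted at 72 h, and unactivated naive (CD44 negative, CD62L positive) and mature (CD44 positive, CD62L negative) cells, make up the other 12 libraries of this first experiment. A second experiment, with its own table of 38 libraries, sorted cells at 48 h as CD62L positive or negative among CD44 positive cells, also from cultures started at 250000 cells per ml. The labels do not say whether the libraries of a group came from separate mice, cultures or sorts, so p-values measure the spread between these libraries, which may be technical.

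CD62L is the adhesion receptor by which naive and central memory T cells enter lymph nodes. After stimulation through the antigen receptor, T cells shed CD62L from the surface. Some activated cells keep or regain it, and these are commonly likened to precursors of central memory cells, whereas CD62L negative cells are commonly likened to effector cells. IL-2, made by activated CD4 T cells, acts on cells that carry its receptor chains and signals through STAT5.

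Promoters are shown for Il2, with the largest fall among called genes above the median level of 47.1 CPM (counts scaled to 1 common library total), and for members of 2 groups whose called members moved in 1 direction: 3 interferon-induced genes that were higher in CD62L positive cells, and 2 p53 target genes that were lower. Each window is 300 bases, from 250 before to 50 after the annotated start, on the gene's own strand, from RefSeq on build GRCm38.p6; the deposited counts were made on another build (mm9). Windows lie at chr3:37125905-37126204 (minus strand) for Il2, chr3:142530086-142530385 (plus) for Gbp7, chr3:142620413-142620712 (plus) for Gbp2, chr4:40239776-40240075 (minus) for Ddx58, chr17:29090729-29091028 (plus, the first of its 2 windows, the second holding no p53 match) for Cdkn1a and chr7:45466849-45467148 (minus) for Bax. Capitals mark GGAAAA, the core that NFAT factors bind, in Il2. They mark GAAANNGAAA, the interferon-stimulated response element, in the next 3, and matches to the unit that a full p53 binding site repeats, searched by name, in the last 2, on either strand.
Il2: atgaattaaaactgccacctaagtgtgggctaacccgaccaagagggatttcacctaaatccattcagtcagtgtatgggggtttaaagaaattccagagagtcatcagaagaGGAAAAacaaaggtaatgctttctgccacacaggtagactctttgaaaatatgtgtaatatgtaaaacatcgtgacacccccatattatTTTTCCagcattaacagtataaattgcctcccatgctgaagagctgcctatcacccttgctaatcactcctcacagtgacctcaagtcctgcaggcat
Gbp7: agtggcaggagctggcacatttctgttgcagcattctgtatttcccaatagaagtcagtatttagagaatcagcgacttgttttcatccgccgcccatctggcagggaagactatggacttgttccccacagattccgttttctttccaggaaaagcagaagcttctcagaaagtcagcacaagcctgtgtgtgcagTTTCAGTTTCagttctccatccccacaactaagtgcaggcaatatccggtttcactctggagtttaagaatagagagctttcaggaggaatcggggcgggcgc
Gbp2: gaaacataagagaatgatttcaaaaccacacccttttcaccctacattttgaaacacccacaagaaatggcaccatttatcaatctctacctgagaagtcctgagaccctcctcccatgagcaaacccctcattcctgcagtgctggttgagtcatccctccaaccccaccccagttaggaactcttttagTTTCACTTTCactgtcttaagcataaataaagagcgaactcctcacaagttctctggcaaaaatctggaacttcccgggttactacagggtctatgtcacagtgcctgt
Ddx58: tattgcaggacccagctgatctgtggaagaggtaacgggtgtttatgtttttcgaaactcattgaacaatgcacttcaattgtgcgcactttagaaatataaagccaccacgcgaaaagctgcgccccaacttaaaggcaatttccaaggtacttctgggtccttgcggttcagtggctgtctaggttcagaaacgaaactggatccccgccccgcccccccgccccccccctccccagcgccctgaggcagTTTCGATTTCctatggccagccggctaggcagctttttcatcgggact
Cdkn1a: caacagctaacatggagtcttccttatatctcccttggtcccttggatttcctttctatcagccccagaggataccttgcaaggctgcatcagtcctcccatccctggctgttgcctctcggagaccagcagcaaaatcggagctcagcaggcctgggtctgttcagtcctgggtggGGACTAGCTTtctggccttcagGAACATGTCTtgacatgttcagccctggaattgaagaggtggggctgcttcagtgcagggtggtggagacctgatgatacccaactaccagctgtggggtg
Bax: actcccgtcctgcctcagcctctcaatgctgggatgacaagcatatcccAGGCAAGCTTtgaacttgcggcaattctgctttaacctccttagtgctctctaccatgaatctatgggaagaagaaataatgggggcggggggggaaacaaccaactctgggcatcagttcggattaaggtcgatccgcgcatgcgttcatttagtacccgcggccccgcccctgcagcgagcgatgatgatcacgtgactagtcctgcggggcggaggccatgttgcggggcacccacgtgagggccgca

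Of the 8961 genes tested, 6925 had a promoter in the table, with 8883 windows. GAAANNGAAA lay in 3.19% of these windows, and in 3.44% of all 32851 windows of the table. It lay in 25 of 367 windows of genes higher in CD62L positive cells and in 5 of 217 windows of genes lower there. Windows of genes listed for interferon gamma and antigen presentation held it in 10 of 24 cases, and those of the type I interferon list in 14 of 28. The p53 unit lay in 6.27% of windows of tested genes and in 10 of 26 windows of the p53 target list. Genes lower in CD62L positive cells held it in 13 of 217 windows (5.99%), near the share of all tested genes, and genes higher there in 16 of 367. GGAAAA, a short word, lay in 20.3% of windows of tested genes and in 18.8% of those of the antigen receptor list, so its presence in Il2 sets that window little apart. The other motifs searched were more frequent in windows of both higher and lower genes than in those of tested genes. TGANTCA (AP-1) lay in 8.17% of windows of higher and 6.45% of lower genes, against 4.64%. CCACACCC (KLF) lay in 5.72% and 7.37%, against 3.91%. TTCNNNGAA (STAT) lay in 10.1% and 9.22%, against 7.04%. The NF-kB motif, searched by name, lay in 14.7% of both, against 10.5%. These matches describe the letters of the windows, and factor binding was not measured.

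The CD62L positive libraries held 814556 to 900724 counts and the negative ones 1189216 to 1301340, so that depth separates the groups. Genes with at least 1 count numbered 10518 to 10671 in positive and 10970 to 11262 in negative libraries. Both groups were T cells by their markers: the summed level of the 9 T-cell markers in the table was 2995 to 3071 CPM in positive and 2798 to 2922 CPM in negative libraries. The B-cell list of 14 genes summed to 94.0 to 98.3 CPM in positive and 49.1 to 83.1 CPM in negative libraries, against 3927 to 8830 CPM in unactivated cells. Pax5, a defining B-cell gene, was at 0 counts in both groups, but also in the naive and mature libraries, so that it tells nothing of B cells here. The CD8 and NK-cell list (9 genes) summed to 25.6 to 39.1 against 13.03 to 26.0 CPM, the myeloid list (14 genes) to 24.5 to 37.97 against 24.4 to 47.0 CPM, and the red cell and platelet list (12 genes) to 15.0 to 46.9 against 13.7 to 62.1 CPM. None of the tested members of these 4 lists of other cells passed edgeR's test or DESeq2 at 48 h; at an unadjusted p under 0.05 in edgeR, 3 of 11 B-cell and 1 of 6 CD8 and NK-cell genes did, and 0 of the myeloid and red cell genes. The part of depth and of the higher B-cell sum in the results below was not tested, except that thinning the 6 libraries to 814556 counts each left 484 of 583 calls in place. One naive library, replicate 1, held only 58750 counts; it enters the shared estimate of spread, and without it 664 genes passed, among them 578 of the 583.

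Differences are log2 CD62L positive minus negative ± SE, with n = 3 libraries a group, and a gene is called higher, lower, risen or fallen only if its p from the quasi-likelihood test of edgeR, adjusted by Benjamini-Hochberg across every tested gene, was below 0.05. In all, 583 of 8961 genes passed (6.51%). Of these, 363 were higher in CD62L positive cells (4.05%) and 220 lower (2.46%). The median difference over all genes tested was 0.0094, a value that the scaling of the libraries sets near 0. Most changes were modest: the median size was 0.86 among the higher and 0.79 among the lower genes, and 147 and 82 genes differed by more than 2-fold. The 3 libraries of one group lay wholly above or below the other in 350 of the 363 and 218 of the 220, against 26.2% of all genes tested. The calls rest on these same 6 libraries, so a lack of overlap in called genes describes them and is no further test. Leaving out negative replicate 1 lowered the number of calls to 385, the lowest of the 6 counts with 1 library left out. In bulk RNA, fewer cells that express a gene cannot be told apart from less RNA per cell.

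**Figure D1:**
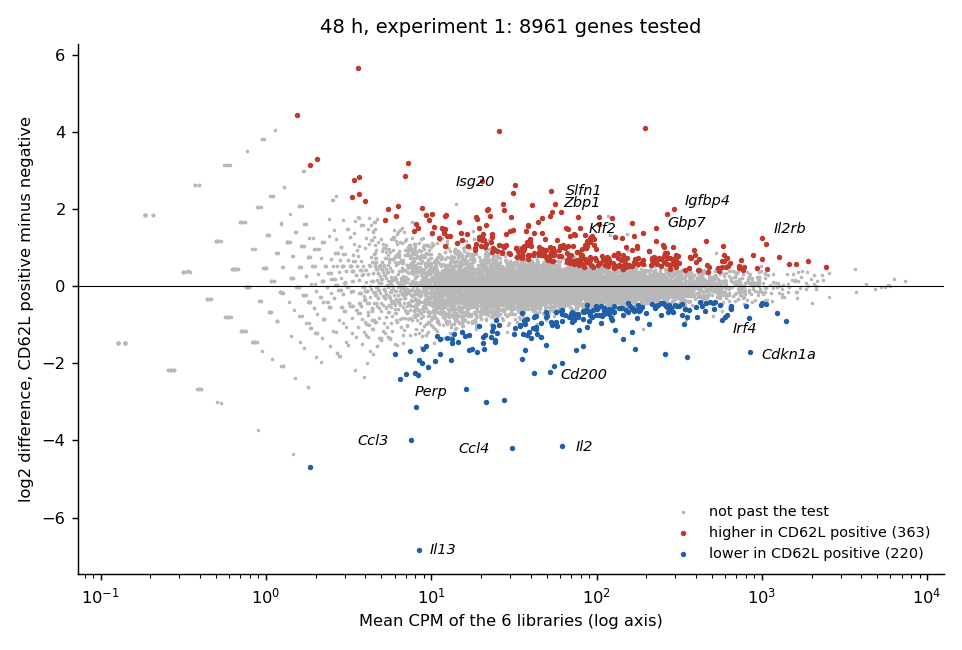
Log2 difference of CD62L positive minus negative cells at 48 h (vertical) against the mean level over the 6 libraries in CPM (horizontal, log axis), 1 point a gene; red and blue points passed the test. Among genes above 20 CPM, Il2 at -4.13 and Ccl4 at -4.18 lie at the bottom.

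Genes of naive and central memory T cells were higher in the CD62L positive cells, but the transcription factors most often used to define that state were not. Of 26 list members, all tested, 12 rose and none fell, with a median of 0.66. Klf2, the factor that keeps T cells quiescent and drives S1pr1, was at 113, 114 and 132 CPM in positive and 37.8, 29.7 and 36.0 CPM in negative libraries. It rose by 1.79 ± 0.17 (adjusted p = 1.9e-09), with no overlap between groups. S1pr1, the sphingosine 1-phosphate receptor that lets T cells leave lymph nodes, was at 50.2, 53.9 and 69.1 against 15.9, 19.0 and 22.2 CPM and rose by 1.59 ± 0.23. Igfbp4, an insulin-like growth factor binding protein typical of naive T cells, was at 454, 505 and 452 against 112, 107 and 132 CPM, a rise of 2.00 ± 0.19. In each of these 3 genes every positive library lay above every negative one.

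Other members of the naive list rose as well. They were Ly6c1, a surface protein of naive and memory cells (2.14 ± 0.30), the Tec-family kinase gene Txk (2.00 ± 0.30), Nsg2, a neuronal vesicle protein gene also expressed in T cells (1.79 ± 0.16), and the costimulatory receptor gene Cd27 (0.98 ± 0.14). The survival gene Bcl2 (0.73 ± 0.13), Treml2 (0.67 ± 0.13), the transcription factor gene Ets1 (0.66 ± 0.15) and the chromatin organiser gene Satb1 (0.49 ± 0.13) rose by less. By contrast Tcf7, which encodes TCF-1, was at 49.1, 40.1 and 62.4 in positive and 35.3, 45.7 and 41.4 CPM in negative libraries, overlapping groups with a difference of 0.31 ± 0.23. Lef1 stood at 0.04 ± 0.13, Bach2 at -0.23 ± 0.15, the IL-7 receptor gene Il7r at 0.09 ± 0.29 and Ccr7, the chemokine receptor for lymph node entry, at 0.07 ± 0.13. None of these 5 passed (adjusted p from 0.44 to 0.91), and the sign for Lef1, Ccr7 and Il7r was not stable when a library was left out. Reads of Ly6c1 and its near copy Ly6c2 may have been split by the counting.

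Genes of homing and egress moved in both directions: 6 of the 18 tested members (21 in the list) rose and 2 fell. Besides Klf2 and S1pr1, the risen members were Itgb7, the beta 7 integrin of gut homing (1.64 ± 0.16), Fut7, a fucosyltransferase that builds selectin ligands (1.74 ± 0.35), Selplg, the P-selectin ligand (0.71 ± 0.12), and S1pr4 (0.73 ± 0.17). Itgb7 was at 250, 257 and 234 CPM against 80.6, 75.4 and 81.3 CPM, and Selplg at 1031, 1387 and 1290 CPM against 765, 752 and 747 CPM. Both genes had no overlap between groups. Itgb1, the beta 1 integrin that marks antigen-experienced T cells, fell by 0.99 on the log2 scale (255, 187 and 234 against 470, 447 and 424 CPM). Gpr183, an oxysterol receptor that guides the position of cells in lymphoid tissue, stood at -0.88 ± 0.22 and also fell. Without positive replicate 1 only 1 member of the list fell.

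The cytokine and chemokine genes that activated T cells make were among the largest falls. Il2 was at 4.47, 8.77 and 6.69 CPM in CD62L positive and at 116, 128 and 110 CPM in CD62L negative libraries. The difference of -4.13 ± 0.29 (adjusted p = 1.5e-12), or 17.6-fold lower, had no overlap between groups. Ccl4, an inflammatory chemokine, was at 3.35, 3.76 and 2.23 against 55.4, 61.7 and 59.0 CPM (-4.18 ± 0.35), with no overlap between groups. Its neighbour Ccl3 had 2 counts over the 3 positive libraries and 55 over the negative ones, a ratio of 18.7 (exact 95% counting interval 4.93 to 158). Il13, a type 2 cytokine, had 0 counts in all 3 positive libraries and 64 over the negative ones, where it stood at 20.1, 14.5 and 16.1 CPM. Set against 3 counts in the whole positive group, the floor used for genes at 0, it was at least 14.5-fold lower in positive cells.

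Ifng was at 6.70, 10.0 and 15.6 CPM in positive against 27.7, 36.6 and 26.8 CPM in negative libraries and fell by 1.48 on the log2 scale. Tnfsf11, which encodes the cytokine RANKL, was at 14.5, 27.6 and 21.2 against 105, 89.1 and 72.8 CPM (-2.08 ± 0.24), and Ebi3, a subunit of IL-27 and IL-35, stood at -1.18 ± 0.24. Not every cytokine gene followed. Ltb, lymphotoxin beta, rose by 0.80 ± 0.18 and Il16 by 0.71 ± 0.14, while Lif, of the IL-6 family, was near equal at 0.14 ± 0.14. Of the 14 tested members of the cytokine list (27 in all), 2 rose and 4 fell. Il21 had 0 counts in all 6 libraries.

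Genes induced through the antigen receptor were lower in CD62L positive cells. Of 26 tested members (34 in the list), none rose and 13 fell, with a median of -0.63, beside 0.0094 over all genes. Cd200, an inhibitory surface glycoprotein, was at 16.8, 23.8 and 14.5 CPM against 85.6, 80.7 and 91.2 CPM (-2.23 ± 0.24). Irf4, a factor whose amount follows the strength of receptor signalling, was at 420, 435 and 356 CPM against 727, 801 and 712 CPM (-0.89 ± 0.13). The groups did not overlap for either gene. The zinc finger genes Egr2, Egr3 and Egr1 stood at -1.64 ± 0.34, -1.35 ± 0.25 and -0.80 ± 0.21, the phosphatase gene Dusp4 at -1.52 ± 0.24, and the repressor gene Bhlhe40 at -1.13 ± 0.18; all 5 fell.

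Among costimulatory receptors of this list, Tnfrsf4 (OX40) was at 522, 719 and 565 CPM against 1100, 1117 and 972 CPM (-0.82 ± 0.13) and Tnfrsf9 (4-1BB) stood at -0.92 ± 0.20. The receptor gene Pdcd1 (PD-1) fell with them, at -1.21 ± 0.27. Ctla4, which carries an opposing signal at CD28 ligands, went the other way, at 373, 325 and 378 CPM against 223, 251 and 249 CPM, a rise of 0.57 ± 0.12. Several classic activation markers did not pass: Nr4a1 stood at -0.45 ± 0.17, Cd69 at -0.45 ± 0.19, Cd44 at -0.45 ± 0.20 and Myc at -0.22 ± 0.14, with adjusted p from 0.13 to 0.39. Nfkb2, of the alternative NF-kB pathway, fell (-0.88 ± 0.17), and Atf3, a stress-induced partner of AP-1, fell too (-1.05 ± 0.18).

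Target genes of p53, the factor that responds to DNA damage and other stress, were lower in CD62L positive cells with no exception among those that passed. Of 23 tested members (26 in the list), 12 fell and none rose, with a median of -0.84, the lowest of the 40 lists other than markers. The number that fell ran from 9 to 14 over the alternatives, and none rose in any of them. Cdkn1a, which encodes the cell-cycle inhibitor p21, was at 438, 361 and 404 CPM against 1373, 1366 and 1166 CPM (-1.70 ± 0.16, adjusted p = 1.7e-09). Phlda3, an inhibitor of Akt, was at 79.3, 85.2 and 78.0 against 237, 203 and 189 CPM (-1.38 ± 0.16). The apoptosis effector gene Bax was at 424, 458 and 494 against 871, 773 and 670 CPM (-0.75 ± 0.13). No library of one group reached the other in these 3 genes.

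The other fallen p53 targets were Perp (-2.67 ± 0.46), Plk2 (-1.69 ± 0.53), Plk3 (-1.05 ± 0.26), Psrc1 (-0.98 ± 0.13), the RNA-binding protein gene Zmat3 (-0.96 ± 0.18), the BH3-only death gene Bbc3 (PUMA, -0.91 ± 0.20), Sesn2 (-0.84 ± 0.18), Ccng1 (-0.80 ± 0.17) and Ei24 (-0.52 ± 0.15). Mdm2, which encodes the ligase that removes p53, stood at -0.43 and did not pass. Gadd45b, a stress gene outside this list, was at 96.0, 124 and 135 against 395, 399 and 399 CPM (-1.75 ± 0.15). Within the Bcl2 family the survival genes diverged: Bcl2 was higher, at 864, 693 and 729 against 418, 497 and 468 CPM, and Bcl2l1 (Bcl-xL) was lower, at 458, 374 and 404 against 631, 590 and 636 CPM. The call for Bcl2l1 was lost without negative replicate 1 or 3 and without positive replicate 2 or 3.

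**Figure D2:**
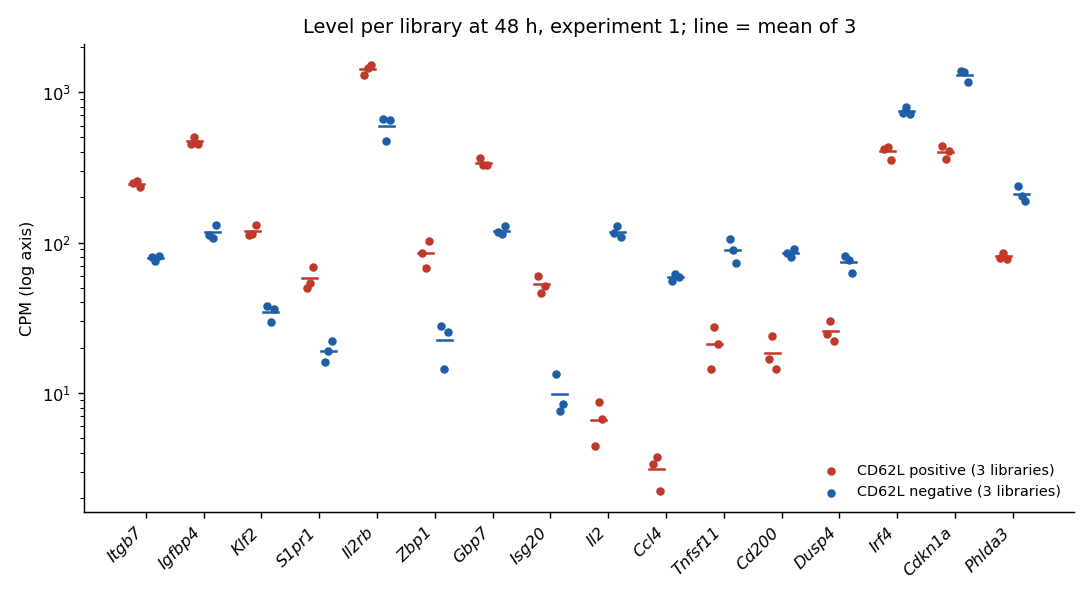
Level of 16 genes in each of the 6 libraries at 48 h, in CPM on a log axis; dots are libraries and short lines the means of 3. The 8 genes on the left are higher and the 8 on the right lower in CD62L positive (red) than negative (blue) libraries, and no gene shown has overlapping groups.

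CD62L positive cells held less Il2 RNA but more RNA of the beta chain of the IL-2 receptor. Il2rb, the beta chain shared with the IL-15 receptor, was at 1299, 1451 and 1510 CPM in positive and 666, 471 and 654 CPM in negative libraries, a rise of 1.25 ± 0.14 (adjusted p = 2.6e-08). Il2ra, the alpha chain (CD25), was at 1953, 1840 and 1786 against 1697, 1536 and 1525 CPM. Its 0.23 ± 0.13 did not pass (adjusted p = 0.33), although the libraries did not overlap. The feedback inhibitor gene Socs3 was at 112, 90.2 and 97.0 against 36.1, 44.9 and 25.3 CPM and rose by 1.49 ± 0.23, while Cish, the inhibitor gene most directly driven by STAT5, was at 1003, 1004 and 1002 against 925, 933 and 849 CPM (0.15 ± 0.12, adjusted p = 0.55). Socs1 and Socs2 rose by 0.40 ± 0.12 and 0.46 ± 0.13, and Stat5a fell, at -0.74 ± 0.17. Of the 21 tested members of the IL-2 and STAT5 list (22 in all), 7 rose and 3 fell, with a median of 0.15. Without negative replicate 3, 4 rose and 2 fell.

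In the cytokine receptor list, 8 of 26 tested members (30 in the list), Il2rb among them, rose and none fell, with a median of 0.37. Both interferon alpha receptor genes rose (Ifnar1 by 0.98 ± 0.16, at 124, 108 and 111 against 47.0, 67.8 and 58.3 CPM, and Ifnar2 by 0.80 ± 0.23). So did Ifngr1 (0.96 ± 0.19), the IL-10 receptor genes Il10ra (1.05 ± 0.23) and Il10rb (0.79 ± 0.19), Il17ra (0.71 ± 0.18) and Il4ra (0.69 ± 0.16). The call for Il10ra was lost without positive replicate 1. The IL-6 receptor genes Il6ra and Il6st did not pass, at -0.31 ± 0.24 and 0.47 ± 0.24. Cxcr3, the receptor for interferon-induced chemokines, was at 60.3, 48.9 and 72.4 against 15.9, 26.7 and 26.8 CPM and rose by 1.38 ± 0.22, although Tbx21, the T-bet gene, which is known to drive it, stood at -0.21 ± 0.14 and did not pass.

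Several interferon-induced genes were higher in CD62L positive cells, which held less Ifng RNA. In the list for interferon gamma and antigen presentation (26 of 28 genes tested), 11 rose and none fell, with a median of 0.50. Gbp7, a guanylate-binding GTPase of cell-autonomous defence, was at 367, 326 and 328 against 118, 114 and 129 CPM (1.5 ± 0.14, adjusted p = 1.7e-09). Gbp4, Gbp3 and Gbp2 rose by 1.08 ± 0.14, 1.01 ± 0.19 and 0.81 ± 0.16, and Nlrc5, the activator of MHC class I genes, by 0.71 ± 0.14. The class I gene H2-D1 was at 2679, 2925 and 2981 against 2162, 1927 and 1984 CPM (0.50 ± 0.11). Guanylate-binding protein and class I genes have near copies whose reads the counting may have split, so the values of single members are uncertain. The number of risen members was 7 without negative replicate 1 and 7 without positive replicate 3.

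In the type I interferon list, 6 of 28 tested members (33 in all) rose and none fell, with a median of 0.66. The number that rose ran from 4 to 9 over the alternatives, and was 4 without negative replicate 3 or positive replicate 1 or 3. Isg20, an antiviral exonuclease, was at 60.3, 46.4 and 51.3 against 13.4, 7.62 and 8.43 CPM (2.42 ± 0.27), and Zbp1, a sensor of nucleic acid, at 84.9, 67.7 and 102 against 27.7, 14.5 and 25.3 CPM (1.93 ± 0.24). The RNA sensor gene Ddx58 (RIG-I) rose by 1.57 ± 0.27, Stat2 by 0.82 ± 0.22, Ly6e by 0.66 ± 0.13 and Ifit2 by 0.80 ± 0.25. Isg15 stood at 0.35 and did not pass. Slfn1, a Schlafen gene of quiescent T cells that was on no list, was at 103, 77.7 and 92.5 against 20.1, 18.3 and 23.8 CPM (2.13 ± 0.21). Of 8 genes of the Gimap family of lymphocyte GTPases, 4 rose and none fell, led by Gimap7 (252, 271 and 300 against 102, 96.7 and 120 CPM, 1.37 ± 0.14). The number was 2 without negative replicate 2 or 3 and without positive replicate 2 or 3.

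**Figure D3:**
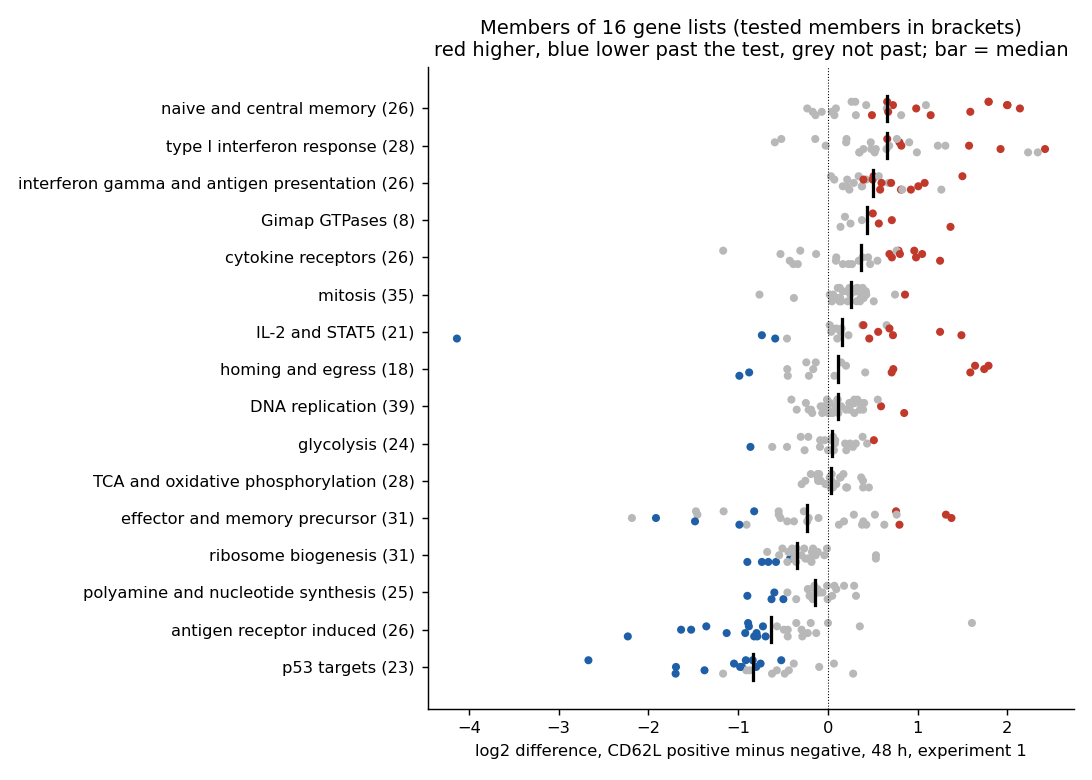
Log2 difference at 48 h of each tested member of 16 gene lists, 1 point a gene, with red higher and blue lower past the test and black bars at the list medians. Medians run from 0.66 for the naive list to -0.84 for the p53 targets; 1 gene can stand in more than 1 list.

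Among genes of growth and metabolism, those that passed at 48 h were mostly lower in the CD62L positive cells. Of 31 tested ribosome biogenesis genes none rose and 5 fell, with a median of -0.35. The number that fell was 10 under DESeq2, 2 without negative replicate 2 or positive replicate 3, and 3 without negative replicate 1 or 3 or positive replicate 2. Srm, spermidine synthase, a gene counted in that list and in the polyamine list, was at 676, 1192 and 1081 against 1752, 1903 and 1834 CPM (-0.90 ± 0.14), and Cad, the first enzyme of pyrimidine synthesis, at 243, 315 and 292 against 403, 487 and 422 CPM (-0.63 ± 0.14). None of 28 tested genes of the tricarboxylic acid cycle and oxidative phosphorylation passed, by edgeR or DESeq2 (2 at an unadjusted p under 0.05), with a median of 0.04. None of 28 genes of cholesterol and fatty acid synthesis passed by either tool (0 at an unadjusted p under 0.05), with a median of 0.0098. In glycolysis 1 of 24 tested genes fell, the hexokinase gene Hk2 (58.1, 35.1 and 61.3 against 89.8, 102 and 91.2 CPM, -0.86 ± 0.20), and 1 rose, Pdk1, whose call depended on the settings.

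Few cell-cycle genes passed in edgeR's fit over all libraries, at shares near the 4.05% of all genes called higher, and the number depended on the fit. In the mitosis list 1 of 35 tested genes passed, Mki67, the proliferation antigen Ki-67, at 221, 145 and 157 against 107, 83.0 and 99.7 CPM (0.86 ± 0.18). The list's median was 0.25, and 33 of the 35 had a positive and 2 a negative difference. At an unadjusted p under 0.05 in edgeR, 12 of the 35 passed. The number of higher mitosis genes was 6 with DESeq2, 5 with the 6 libraries fitted alone, 3 without naive replicate 1 and 2 without positive replicate 2. Among replication genes 2 of 39 rose: Mcm7, a helicase subunit, at 381, 306 and 339 against 168, 198 and 202 CPM (0.85 ± 0.16), and Gins1. The count was 5 with DESeq2 and with the 6 libraries fitted alone, 4 without naive replicate 1, and 1 without negative replicate 2 or 3 or any 1 positive replicate, since the call for Gins1 was then lost. E2f2, a factor of the G1 to S step, was at 333, 341 and 334 against 192, 178 and 182 CPM (0.87 ± 0.13). Xbp1, the transcription factor of the unfolded protein response, was at 644, 963 and 736 against 397, 372 and 363 CPM (1.05 ± 0.18), while the other 21 tested genes of its secretory pathway list did not pass.

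Among regulatory T-cell genes, 3 of 14 tested members rose and 1, Ebi3, fell. Lrrc32, the surface anchor of latent TGF-beta, was at 46.9, 31.3 and 25.6 against 5.88, 9.90 and 9.96 CPM (1.99 ± 0.32) and the receptor gene Gpr83 at 106, 109 and 73.5 against 52.0, 42.6 and 46.0 CPM (1.03 ± 0.25). Foxp3, the defining factor, was low in both groups, at 13.4, 13.8 and 7.80 against 5.88, 6.86 and 3.07 CPM, and did not pass (1.12 ± 0.48, adjusted p = 0.18). The 5 marker genes of regulatory cells summed to 138 to 217 CPM in positive and 108 to 120 CPM in negative libraries. Of these 5, 3 had a positive difference and 2, Ikzf2 and Nrp1, a negative one, the lowest at -0.66. The part of such cells in the differences was not tested. Of the lineage factors, Gata3 stood at -0.13 ± 0.13 and Bcl6 at 0.63 ± 0.52, neither past the test.

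At 72 h, in other libraries of the same experiment, the same sort gave 1747 genes past the test (19.5%), 909 higher (10.1%) and 838 lower (9.35%). Of the 363 genes higher at 48 h, 221 (60.9%) were also higher at 72 h, which is 24.3% of the 909, and 6 were lower. Of the 220 lower at 48 h, 130 (59.1%) were lower at 72 h, which is 15.5% of the 838, and 1 was higher. Il2 stood at -2.79, Cdkn1a at -1.95 and Irf4 at -1.30 at 72 h. Markers of other cells were also higher at 72 h, in 3 of 11 tested B-cell, 3 of 11 myeloid, 1 of 6 CD8 and NK-cell and 1 of 4 red cell and platelet genes, and their part in these counts was not tested. The naive list had 22 of 26 members higher at 72 h, against 12 at 48 h, and ribosome biogenesis 20 of 31 lower, against 5. Of 23 tested p53 targets, 10 were lower and 3 higher at 72 h.

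The difference itself changed between 48 and 72 h for 169 genes (1.89%), 53 upward (0.591%) and 116 downward (1.29%). This number rests on few libraries: it was 79 without 72 h positive replicate 1, 95 and 103 without 48 h negative replicates 1 and 2, 102 without 72 h negative replicate 2, 256 without 72 h positive replicate 3 and 270 without naive replicate 1. Il6ra went from -0.31 to 1.35 (change 1.66 ± 0.30, adjusted p = 0.0026, edgeR). At 72 h it ranged from 348 to 526 CPM in positive and from 139 to 187 CPM in negative libraries. Cish went from 0.15 to -1.24 (change -1.39 ± 0.18, adjusted p = 1.5e-05), with 355 to 423 against 845 to 1055 CPM at 72 h. Xbp1 went from 1.05 to -1.09 and Tgm2, transglutaminase 2, from 1.86 to -0.55. Naive-state genes that had not passed at 48 h gained a difference, from 0.31 to 1.54 for Tcf7, 0.04 to 0.82 for Lef1 and -0.23 to 0.85 for Bach2; the calls for Tcf7 and Lef1 were lost when some single libraries were left out. Mcm7 went from 0.85 to -0.55, and 21 of 39 replication genes were lower at 72 h, where 2 had been higher at 48 h.

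**Figure D4:**
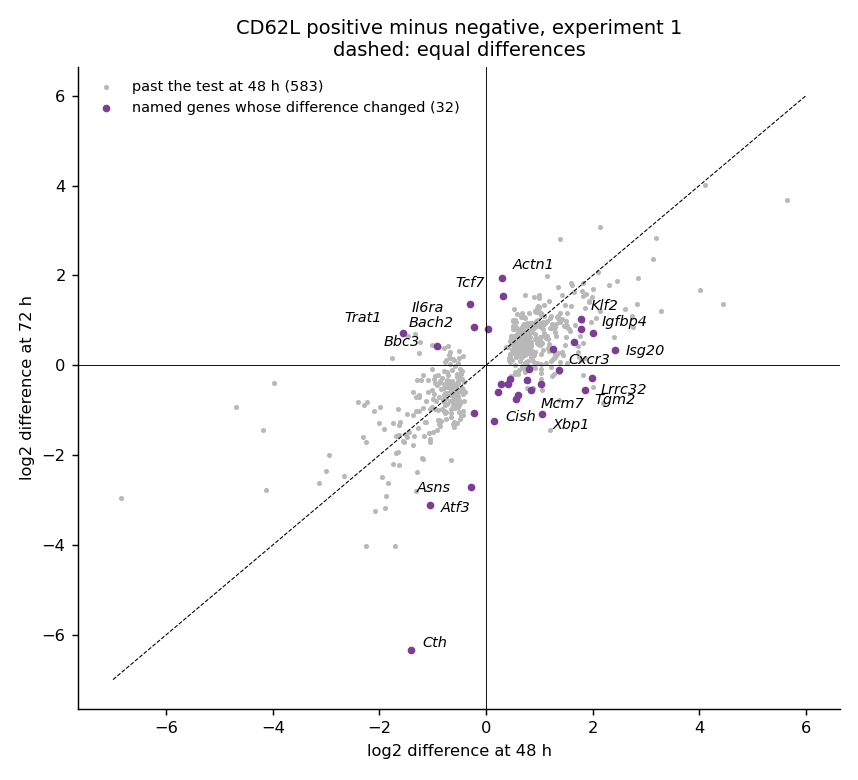
Log2 difference of CD62L positive minus negative cells at 72 h (vertical) against that at 48 h (horizontal); grey points are the 583 genes past the test at 48 h and purple points the 32 named genes whose difference changed, with equality on the dashed line. Xbp1 and Tgm2 lie above 0 at 48 h and below 0 at 72 h, and Tcf7 and Il6ra gained a positive difference.

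The same sort at 48 h in the second experiment, restricted to CD44 positive cells, shares no library with the first. There, 1341 of 9239 genes passed (14.5%), 668 higher (7.23%) and 673 lower (7.28%). Of the 345 genes higher in experiment 1 that were tested in both, 193 (55.9%) were higher in experiment 2, which is 34.04% of the 567 called there among shared genes. Of 200 lower genes, 119 (59.5%, or 20.3% of 587) were lower in experiment 2. No gene called in the first experiment was called in the opposite direction in the second. All 3 positive libraries carry 1 as a second title number and the negative ones 1, 2 and 2; what that number means is not given in the labels. With number 1 alone, which leaves 1 negative library whose spread is taken from the other groups, 516 genes passed, and 818 and 847 passed without negative replicate 2 or positive replicate 3.

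Several genes named above had the same direction there. Il2 was at 1.15, 1.42 and 1.93 against 91.8, 126 and 76.2 CPM (-5.98 ± 0.41). Cdkn1a stood at -2.31 ± 0.19 there and Irf4 at -2.01. All 5 of Egr1, Egr2, Egr3, Dusp4 and Bhlhe40 were lower in both experiments. Of the antigen receptor list, 23 of 31 tested members were lower in experiment 2, with a median of -1.495. Of 20 tested p53 targets 8 were lower and none higher, and of 25 naive list members 13 were higher and none lower. The interferon lists each had 1 lower member there. Of 24 tested members of the interferon gamma list 10 were higher, and of 26 of the type I list 6 were. Some genes that had not passed in experiment 1 passed in experiment 2: Il2ra rose by 1.01 in experiment 2 (557, 523 and 481 against 331, 235 and 209 CPM), and Nr4a1, Cd69, Cd44 and Myc were lower, at -2.997, -1.495, -1.49 and -0.85. The sign was the same in both experiments for 327 of the 345 higher and 189 of the 200 lower genes tested in both. Among the rest were Ctla4 and Ddx58, higher in experiment 1. In experiment 2 they stood at -0.40 (adjusted p = 0.194, edgeR) and -0.33 (adjusted p = 0.818, edgeR) and did not pass. In the mitosis list 17 of 35 tested members were higher in experiment 2 and none lower, with a median of 0.56. Of 42 tested replication genes, 3 were higher and 1 lower there. The difference between experiments was not tested, since the tables were made separately.

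**Figure D5:**
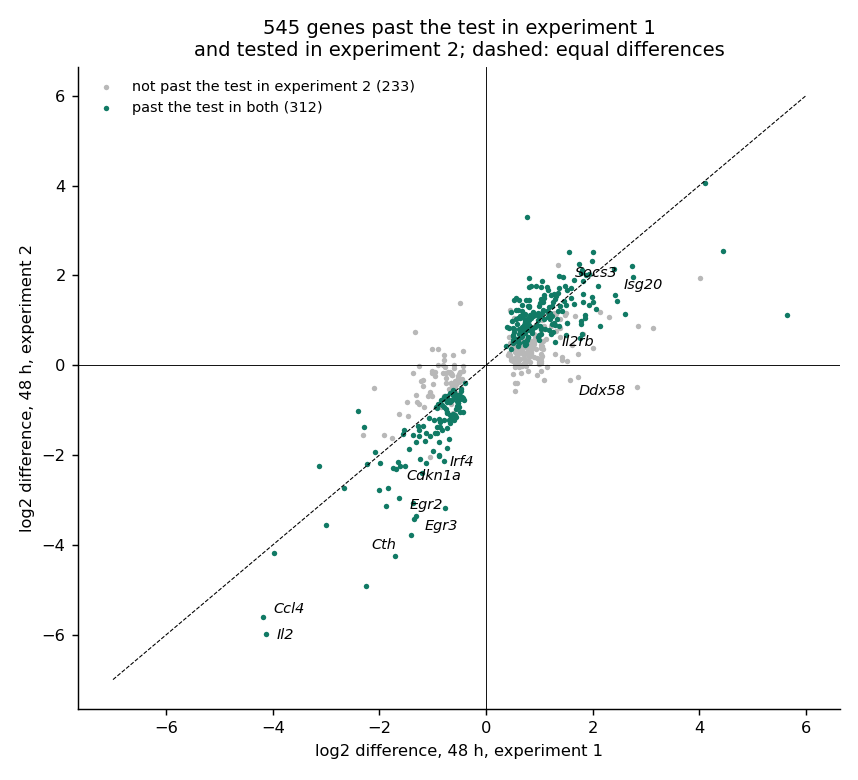
Log2 difference at 48 h in experiment 2 (vertical) against experiment 1 (horizontal) for the 545 genes past the test in experiment 1 and tested in both; green points passed in both (312) and grey points in experiment 1 alone (233). Il2 and Ccl4 lie at the lower left, and no green point has opposite signs in the 2 experiments.

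Unactivated naive (CD62L positive) and mature (CD62L negative) cells of experiment 1 differed in 1471 genes (16.4%), 770 higher (8.59%) and 701 lower (7.82%) in naive cells. Without naive replicate 2 or 3, 771 and 918 genes passed. Of the 363 genes higher in activated CD62L positive cells, 78 (21.5%) were higher in naive cells, which is 10.1% of the 770, and 27 were lower. Of the 220 lower genes, 36 (16.4%, or 5.14% of 701) were lower and 14 higher. Of the markers of other cells, 8 of 11 B-cell and 6 of 11 myeloid genes were also higher in naive cells; their part was not tested. Igfbp4 was higher in naive cells by 4.12, Ly6c1 by 2.55 and Bcl2 by 0.99. Klf2, S1pr1 and Itgb7, all risen in activated CD62L positive cells, stood at 0.31, 0.17 and 0.22 between naive and mature cells and did not pass, and Il2rb and Cxcr3 went the opposite way, at -0.99 and -1.63. Among interferon-induced genes, of 26 tested members of the interferon gamma list 4 were higher in naive cells and 1 lower, with a median of -0.21.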

How the data were processed

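Libraries of 3′ transcript ends were made with poly-T primers carrying molecular identifiers and linear amplification, per the labels' protocols. The deposited values are whole counts per gene symbol, in 1 table for each experiment; the authors' tables were never joined. Build mm9 and the tools HTSeq 0.9.1, STAR 2.5.2b, HISAT 0.1.5, bcl2fastq 2.17.1.14 and FastQC 0.11.7 appear in the submitters' processing notes. For the aligner of each table, the annotation, the use of strand and the collapsing of identifiers, the answer was not given in the sources used here. Overlapping or antisense genes therefore cannot be told apart, and counting intervals cover counting error only.

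The counts were analysed in R 4.3.3 with edgeR 4.0.16 (limma 3.58.1). Genes were kept by filterByExpr with a minimum count of 10. Libraries were scaled by TMM, and a robust quasi-likelihood model was fitted over all 18 libraries of experiment 1 (8961 genes, 12 residual degrees of freedom) and separately over all 38 of experiment 2 (9239 genes, 25 residual degrees of freedom). P-values were adjusted by Benjamini-Hochberg over all genes tested, with a threshold of 0.05. SE is the size of the log2 difference divided by the square root of F. CPM used the summed counts of the kept genes in each library, times its TMM factor. Against a group at 0 counts, a fold is a bound set by 3 counts over the group; ratios at 1 to 3 counts have an exact 95% interval. Promoter motifs were searched with Python 3.11.15 for 7 motifs on both strands, and the promoters shown were picked after their matches were seen.

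Alternatives were DESeq2 1.42.0, RLE factors, no filter on low counts, the replicate number as a block, a fit of only the groups compared, and leaving out each library. Thinning to equal depth and leaving out naive replicate 1 were added after seeing the data. The fit was tested on simulated data. The rule for named genes took the top 12 in each direction by log2 difference among called genes at or above the median level whose groups do not overlap, up to 4 members of each list by smallest adjusted p, the 5 smallest adjusted p of the change between times, and preset genes of T-cell state. Other list members are named to describe their list and were chosen after their values were seen. One gene this rule names is not reported here and was left out of the gene lists. The members and lists were chosen with earlier results of these data known.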

Additional observations from a re-analysis of the deposited data

Results flagged for a closer look

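The CD62L difference (log2, positive minus negative) differed between 48 and 72 h by the interaction test (edgeR) for 32 named genes; each value below is the difference at 72 h minus that at 48 h. It went down for the naive-state and homing genes Igfbp4 (-1.29), Klf2 (-0.77), Itgb7 (-1.12) and Fam102a (-0.98), and for Tgm2 (-2.42), Vim (-1.09), Anxa2 (-0.88), Isg20 (-2.08), Cxcr3 (-1.48) and Atf3 (-2.07). In IL-2 signalling and regulatory T-cell genes it went down for Il2rb (-0.89), Il2ra (-0.83), Cish (-1.39), Lrrc32 (-2.26), Gpr83 (-1.44) and Id2 (-0.82).

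In growth and cell-cycle genes it went down for Aldoa (-0.69), Mcm7 (-1.40), Gins1 (-1.25), Lig1 (-1.32), Cdt1 (-0.82) and Ccnd3 (-0.76), and in stress and amino acid genes for Xbp1 (-2.14), Asns (-2.43) and Cth (-4.94). The 3 positive libraries at 72 h had 0 counts of Cth, so its fitted value depends on the prior count and is no bound. It went up for Bach2 (1.07), Tcf7 (1.23), Lef1 (0.77), Il6ra (1.66), Trat1 (2.29), Actn1 (1.63) and Bbc3 (1.34). Of the 32, 22 to 32 passed when 1 library was left out; without 48 h negative replicate 2, those lost were Aldoa, Anxa2, Ccnd3, Fam102a, Gpr83, Id2, Klf2, Lef1, Tcf7 and Trat1.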

How the results depend on the processing

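At 48 h the number of genes past the test was 583, and between 450 and 723 under the alternatives other than leaving out a library: 723 with DESeq2, 599 with RLE factors, 680 without the filter and 701 in a fit of the 6 libraries alone, or 450 there with the block. Leaving out 1 of the 6 libraries gave 385 to 569, lowest without negative replicate 1, and leaving out naive replicate 1 gave 664. The change between 48 and 72 h gave 169 genes, 355 with DESeq2, 279 without the filter, 270 without naive replicate 1 and 79 to 256 with 1 library left out. Experiment 2 gave 1341, 818 to 1480 with 1 library left out and 516 with title number 1 only. Naive against mature cells gave 1471, and 771 to 1447 with 1 library left out. The cause of these moves was not tested.

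With the replicate number as a block, counts were 569 at 48 h, 1740 at 72 h, 167 for the change, 1328 in experiment 2 and 1376 for naive against mature. Deviations of same-numbered libraries from their group means correlated at -0.0912, -0.0923 and 0.00976 at 48 h. With 3 libraries a group, such values cannot tell whether same-numbered libraries share a mouse, culture or sort, which the labels do not say.

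Of 173 named genes tested, 104 passed, 22 of these lost their call under at least 1 alternative, and none reversed. Among genes that had not passed, signs turned when 1 library was left out for Ccr7 (-0.0052 without negative replicate 1, up to 0.107), Il7r (-0.048 without negative replicate 3, up to 0.206), Lef1 (-0.0019 without negative replicate 3 and -0.010 without positive replicate 1, up to 0.107) and Prdm1 (-0.10 without positive replicate 2, up to 0.947). Depth limits genes at a few counts, and the positive libraries were the shallower ones.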

Other observations

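Integrin genes moved in both directions at 48 h: 4 of 12 tested subunits rose and 1, Itgb1, fell. Itgb3, the beta 3 subunit that pairs with alpha V, rose by 1.25, Itga6, a laminin receptor subunit, by 1.04 and Itgb2, the beta chain of LFA-1, by 0.43. In the list of effector and memory precursor genes, 4 of 31 tested members rose and 4 fell, with a median of -0.23. Nkg7, a cytotoxic granule gene, stood at -1.92 and fell, whereas Crip1, a LIM-domain protein gene of memory cells, rose by 1.32 and the intermediate filament gene Vim by 0.76.

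None of 12 tested metallothionein and zinc transport genes passed by edgeR or DESeq2 (1 at an unadjusted p under 0.05), and 1 rose with the 6 libraries fitted alone, with a median of 0.03. Of 8 tested genes of type 2 helper cells, 1 rose, Il4ra, and 1 fell, Il13. Both members of the follicular helper list that passed, of 14 tested, fell: Pdcd1 and Cd200.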
